A study of Xenopus laevis with 16 samples.

Results

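The genes described here build 3 kinds of contact between epithelial cells: tight junctions, desmosomes and gap junctions. They are all transcripts of the deposited full table whose assigned human symbol is a numbered claudin (CLDN), zonula occludens protein (TJP), desmoglein (DSG), desmocollin (DSC), plakophilin (PKP) or connexin of the GJA, GJB and GJC groups, or is OCLN, DSP or JUP. The rule took 108 of 43646 transcripts, which carry 43 human symbols. They comprise 40 claudin transcripts, 12 of occludin and the zonula occludens (ZO) proteins, 17 desmosome transcripts and 39 connexin transcripts.

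The study sequenced polyadenylated RNA from 16 samples of Xenopus laevis embryos (Nasco strain), collected at stage 12. Animal caps, the ectoderm at the top of the blastula, were cut at stage 9 and gave 4 libraries from uninjected intact caps (controls 1 to 4) and 3 from caps separated into single cells (dissociated 1 to 3). Single libraries came from caps injected in early cleavage with mRNA for BMP4 (200 pg), Chordin (400 pg), Wnt8 (16 pg), Cerberus (400 pg), FGF8 (200 pg), Xnr2 (200 pg), or Wnt8 (16 pg) together with Xnr2 (200 pg), and from dorsal explants and ventral explants, the 2 pieces of embryos cut apart at stage 10. Control 1 was the labelled control of dissociated 1, BMP4 and Chordin, control 2 that of dissociated 2, control 3 that of dissociated 3, Wnt8 and Cerberus, and control 4 served Xnr2, FGF8 and the double injection. The file headers describe these control sets as separate experiments, but no label gives the clutches or the number of caps, so p-values measure only the spread between these samples, which may be partly technical. Each injection and each explant has 1 library, so those have no replicate of their own.

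Claudins are membrane proteins that form the strands of the tight junction, the seal between the apical and basolateral faces of an epithelium. Occludin lies in the same strands, and the ZO proteins are scaffolds that tie them to actin. In a desmosome, desmogleins and desmocollins are cadherins that bind across the gap between cells, and plakoglobin, the plakophilins and desmoplakin anchor them to keratin filaments. Connexins assemble into channels through which small molecules and ions pass between neighbouring cells; cells of the early amphibian embryo are joined by all these contacts, and the cap's outer layer is a sealed epithelium.

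Levels are given in RPKM (reads per kilobase of transcript, scaled to the mapped reads of the library); the libraries held between 25408438 and 46522450 mapped reads, as recovered from the values. The caps were checked with epidermal ectoderm markers (18 transcripts of 10 genes), whose summed level was 1487 to 1721 RPKM in controls 1 to 3, with none of the 10 genes at 0. Of these genes, TP63 averaged under 1 RPKM over controls 1 to 3 and dissociated 1 to 3. Control 1 stood apart from the other controls: over the transcripts listed in all libraries, its multiciliated cell markers (11 transcripts) summed to 89.6 RPKM against 486 to 862, and its neural plate markers (13 transcripts) to 247 RPKM against 70.9 to 133. Calls of junction transcripts that changed without it are given both ways. The share of all transcripts called without it is not given here, so those calls cannot be set against it. Other counts, and the ratios and sums set against it, are given only with it. Names ending in .L and .S are the homeologous copies of the allotetraploid genome, models with a number alone are given with their human symbol, and how reads were shared between similar copies is not given in the sources used here, so differences between copies are uncertain. In bulk tissue, fewer cells of a type and less RNA per cell cannot be told apart.

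Of the 108 transcripts, 34 averaged at least 1 RPKM over controls 1 to 3 and dissociated 1 to 3. Those were 9 of 40 claudin, 10 of 12 occludin and ZO, 12 of 17 desmosome and 3 of 39 connexin transcripts. A further 60 had reads but averaged under 1 RPKM, and 14 (10 claudin and 4 connexin transcripts) had none in these 6 libraries. Outside the full table, 44 of the 108 were listed in at least 1 other table; per the file headers, the tables of a treated library with its control, and that of the explants, drop those averaging under 1 RPKM. Most desmosome, occludin and ZO transcripts thus averaged 1 RPKM or more, while most claudin and connexin transcripts had reads at lower levels.

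Claudins 4 and 7 made up nearly all claudin RNA in the intact caps. The claudin 4 copy cldn4.L read 346 RPKM in control 1, 528 in control 2, 412 in control 3 and 476 in control 4. Its partner cldn4.S read 265, 162, 169 and 203 RPKM in the same order. Control 1 was the lowest for the first copy and the highest for the second. Of claudin 7, another strand protein of epithelia, model Xelaev18019668m read 349 ± 73.7 RPKM and Xelaev18001082m 151 ± 62.4 (mean ± SD, controls 1 to 3). Next came cldn12.S at 13.2 ± 2.60 RPKM, cldn23.L at 13.1 ± 4.38 and CLDN19 (Xelaev18003310m) at 5.24 ± 3.31. The copy cldn12.L (4.54 ± 0.777) and cldn10.L (1.51 ± 0.373), whose relatives form ion-selective pores, were the lowest of the 9. The other 31 claudin transcripts, among them models of CLDN1, CLDN3, CLDN5 and CLDN8, averaged under 1 RPKM.

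Of the other tight junction genes, occludin was well expressed and the scaffolds ZO-1 and ZO-3 were low. The strand protein occludin read 104 ± 27.7 RPKM for ocln.L and 39.2 ± 12.4 for ocln.S (mean ± SD, controls 1 to 3). ZO-3 models (TJP3) read 8.69 ± 4.81 (Xelaev18006094m) and 5.43 ± 2.96 RPKM (Xelaev18009647m). The ZO-1 copies tjp1.S and tjp1.L read 2.83 ± 1.35 and 1.66 ± 0.315 RPKM.

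Plakoglobin led the desmosome genes and varied little between control caps. The transcript jup.L read 139, 135, 128 and 135 RPKM in controls 1 to 4, and jup.S read 45.5, 55.1, 47.2 and 48.7. Desmoplakin, which reaches from the plaque to keratin, read 49.5 ± 4.01 RPKM for dsp.S and 56.6 ± 21.4 for dsp.L (controls 1 to 3), the latter with 32.7 RPKM in control 1 against 60.5 to 74 in the other 3. Desmoglein 2, a desmosomal cadherin, read 37.1 ± 5.47 RPKM for the copy Xetrov90016749m.L and 8.52 ± 3.25 for the copy ending in .S. The desmocollin copies dsc3.L and dsc3.S, matched in the files to human DSC1 and DSC2, stood at 2.26 ± 1.66 and 1.49 ± 1.59 RPKM.

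Plakophilins 2 and 3, armadillo proteins of the desmosomal plaque, were both present, and the balance of the 2 plakophilin 3 copies differed between control caps. PKP2 models read 26.3 ± 4.02 (Xelaev18016644m) and 14.4 ± 2.35 RPKM (Xelaev18001750m). The copy pkp3.S read 5.17 RPKM in control 1, 48.1 in control 2, 45 in control 3 and 16.2 in control 4. Its partner pkp3.L read 42.8, 11.6, 17.7 and 25.5 RPKM. Controls with much of one copy thus had little of the other, and the sum of both was 48, 59.7, 62.7 and 41.6 RPKM. The .L share of the sum was 89.2% in control 1, 19.5% in control 2, 28.2% in control 3 and 61.2% in control 4.

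One connexin accounted for most connexin RNA in the caps. The transcript gja7.L, matched to human GJC1, read 93.5, 50.7, 63.1 and 74.5 RPKM in controls 1 to 4. Its partner gja7.S read 9.38, 3.09, 15.9 and 6.29 RPKM. GJB1 (Xelaev18009758m) read 1.68 RPKM in control 1 and 0.237 and 0.0843 in controls 2 and 3. Both GJA1 transcripts stayed below 1 RPKM in the 6 libraries of the full table.

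**Figure D1:**
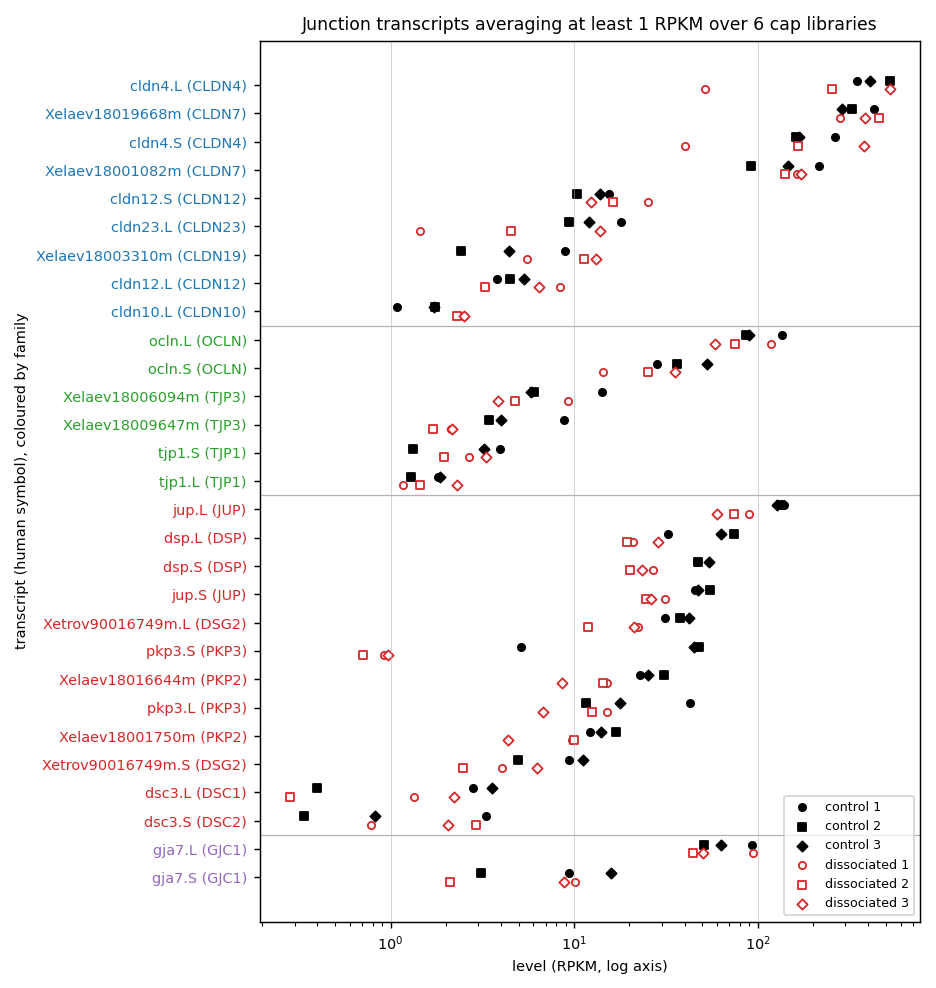
Levels in RPKM (log axis) of 29 of the 34 junction transcripts that averaged at least 1 RPKM, in 3 control libraries (black) and 3 dissociated libraries (red, open), 1 point a library. Dissociated points lie left of all 3 control points for 8 of the 12 desmosome transcripts, while claudin points are mixed.

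Separating caps into single cells removes the contacts these genes build, and the comparison asks what the cells' transcripts do after that. No junction transcript passed the test, but desmosome transcripts were lower in the dissociated caps with little overlap, and claudins were not. Of the 12 desmosome transcripts tested, 10 were lower in all 3 control sets, and in 8 every dissociated library lay below every control. Over all 34 junction transcripts, those counts were 17 and 10. Among all 15820 transcripts tested, 24.9% were lower in all 3 sets and 8.17% lay below every control without overlap; 1 junction transcript was higher in all 3 sets, against 19.3% of all.

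Transcripts were tested with limma on log2(RPKM + 1), with Benjamini-Hochberg adjustment over everything tested, and called at an adjusted p under 0.05. Of the 34 junction transcripts 0 were called, against 0.316% of all transcripts (50 of 15820). At an unadjusted p under 0.05, 10 were lower (29.4% of the 34) and 0 higher, against 5.57% lower and 4.03% higher among all transcripts. A fit blocked on the control set also called 0 (1.51% of all transcripts), and 14 were lower at an unadjusted p under 0.05 (10.9% of all). Those 10 were 8 desmosome and 2 ZO transcripts. The median log2 change was -0.86 over desmosome, -0.39 over occludin and ZO, -0.36 over connexin and 0.15 over claudin transcripts, beside -0.083 over all transcripts.

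Plakophilin 3 had the most negative log2 change of the junction genes tested after dissociation, both for its copy pkp3.S and for its copies summed. The copy pkp3.S read 0.919, 0.704 and 0.975 RPKM in dissociated 1, 2 and 3, against 5.17, 48.1 and 45 in controls 1, 2 and 3. All 3 dissociated libraries were below the lowest control, and that control was control 1. Its log2 change was -3.69 ± 0.76 (SE, limma, adjusted p = 0.136, n = 3 each). Without control 1 the log2 change was -4.67 and the transcript was called (limma, adjusted p = 0.00235). So was dsp.L (-1.55, limma, adjusted p = 0.0333), and the count of calls went from 0 to 2. The share of all transcripts called without control 1 is not given here, so that count cannot be set against it. The partner pkp3.L read 15.1, 12.5 and 6.78 RPKM against 42.8, 11.6 and 17.7, lower in sets 1 and 3 and slightly higher in set 2. With both copies added up, plakophilin 3 read 16, 13.2 and 7.76 RPKM in dissociated caps against 48, 59.7 and 62.7 in controls. On such sums by human symbol it passed the test (log2 change -2.16 ± 0.29, limma, adjusted p = 0.0346), against 0.544% of the 9369 symbols tested (0.32% called lower). At an unadjusted p under 0.05, 5 junction symbols were lower, against 6.46% of all.

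The other plaque proteins were lower by about 1 log2 unit. For dsp.S the values were 27, 20 and 23.5 RPKM in dissociated 1 to 3 and 47, 47.3 and 54.1 in controls 1 to 3. The groups did not overlap, and the log2 change was -1.05 ± 0.21 (limma, adjusted p = 0.136). For dsp.L they were 21.1, 19.4 and 28.6 RPKM against 32.7, 74 and 63.2. Plakoglobin, which also serves adherens junctions, read 89.7, 74.3 and 60.2 RPKM for jup.L against 139, 135 and 128, and 31.3, 24.6 and 26.4 for jup.S against 45.5, 55.1 and 47.2. Their log2 changes were -0.85 ± 0.21 (adjusted p = 0.195) and -0.83 ± 0.21 (adjusted p = 0.211, both limma). PKP2 (Xelaev18016644m) read 15, 14.4 and 8.57 RPKM against 23, 30.8 and 25.2, and its second model read 9.68, 9.98 and 4.39 against 12.2, 16.9 and 14.

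Among the desmosomal cadherins the desmoglein copies were lower and the desmocollins mixed. Xetrov90016749m.L (DSG2) read 22.4, 12 and 21.2 RPKM in dissociated 1 to 3 against 31.4, 37.7 and 42.3 in controls 1 to 3, without overlap (log2 change -1.003 ± 0.29, limma, adjusted p = 0.273). Its .S copy read 4.06, 2.49 and 6.27 RPKM against 9.40, 4.92 and 11.2, lower within each set but overlapping between sets. The desmocollin copy dsc3.L read 1.35, 0.282 and 2.22 RPKM against 2.80, 0.397 and 3.57, also lower within each set with overlap between sets. The copy dsc3.S read 0.780, 2.91 and 2.05 RPKM against 3.30, 0.337 and 0.828, so its sets went both ways.

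Summed over the 11 desmosome transcripts listed in all 16 libraries, the level was 391, 461 and 451 RPKM in controls 1 to 3 and 238, 191 and 189 in dissociated 1 to 3. Without pkp3.S the sums were 386, 413 and 406 against 237, 190 and 188, so the lower level did not rest on that copy. Epidermal ectoderm markers summed to 1487, 1721 and 1678 RPKM in controls 1 to 3 and to 229, 377 and 1405 in dissociated 1 to 3. Of their 18 transcripts 16 were tested and 0 called, with a median log2 change of -2.77. At an unadjusted p under 0.05, 12 were lower and 0 higher (limma), against 5.57% and 4.03% of all transcripts. Ionocyte markers (18 transcripts of 7 genes) summed to 404 to 912 RPKM in those controls and 52.2 to 74.2 after dissociation, and multiciliated cell markers (31 transcripts of 10 genes) to 92.5 to 1044 and 49.3 to 99.9. Neural plate markers (31 transcripts of 12 genes) ran the other way, 175 to 619 and 1676 to 2883 RPKM. None of these marker genes was at 0 in all 6 libraries, but TP63, ATP6V1B1 (ionocyte) and RFX3 (multiciliated cell) averaged under 1 RPKM over them. The part of these cell types in the desmosome values was not tested. In set 3, the desmosome sum was 189 RPKM against 451 and the epidermal sum 1405 against 1678. In that set ionocyte markers summed to 74.2 RPKM against 912, multiciliated cell markers to 99.9 against 582, and neural plate markers to 1676 against 208.

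Of the tight junction plaque, a ZO-3 model was lower without overlap. TJP3 (Xelaev18009647m) read 2.13, 1.70 and 2.15 RPKM in dissociated caps against 8.83, 3.45 and 4.01 in controls (log2 change -1.01 ± 0.36, limma, adjusted p = 0.381). Occludin was lower in each set for both copies, with overlap between the groups: ocln.L read 119, 75.1 and 58.8 against 136, 86.3 and 89.6.

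Claudin 4 went in opposite directions in different experiments. The copy cldn4.S read 40.1 RPKM in dissociated 1 against 265 in control 1, 166 against 162 in set 2, and 379 against 169 in set 3. The ratio to the own control was thus 0.151 (95% exact binomial interval of the recovered reads 0.145 to 0.158), 1.02 (0.999 to 1.05) and 2.24 (2.20 to 2.29). Intervals of reads cover counting error only. For cldn4.L the ratios were 0.150, 0.480 and 1.28, and for cldn23.L 0.0811, 0.480 and 1.15. Each of these claudins was therefore lowest in dissociated 1 and highest in dissociated 3, the same order as the epidermal marker sums above; the link between them was not tested. Their log2 changes were -0.50 ± 0.72, -1.14 ± 0.75 and -1.22 ± 0.62, with adjusted p-values of 0.862, 0.732 and 0.614 (limma).

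The other claudins varied between sets in their own ways. CLDN19 (Xelaev18003310m) read 5.53, 11.4 and 13.2 RPKM in dissociated 1 to 3 against 8.88, 2.42 and 4.41 in controls, below its control in set 1 and above it in sets 2 and 3. CLDN7 (Xelaev18019668m) read 282, 456 and 385 RPKM in dissociated 1 to 3 against 431, 327 and 288 in controls, with the same directions. Among the junction transcripts tested, only cldn10.L was above its control in all 3 sets, at 2.51, 2.30 and 2.52 RPKM against 1.08, 1.75 and 1.72. Its log2 change was 0.46 ± 0.25 (limma, adjusted p = 0.646). Some transcripts too low to be tested were also above it in each set, such as cldn5.S at 0.746, 0.726 and 0.703 RPKM against 0.416, 0.355 and 0.181. Connexin gja7.L read 94.6, 44.3 and 50.2 RPKM against 93.5, 50.7 and 63.1, and both groups showed the same order of experiments.

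**Figure D2:**
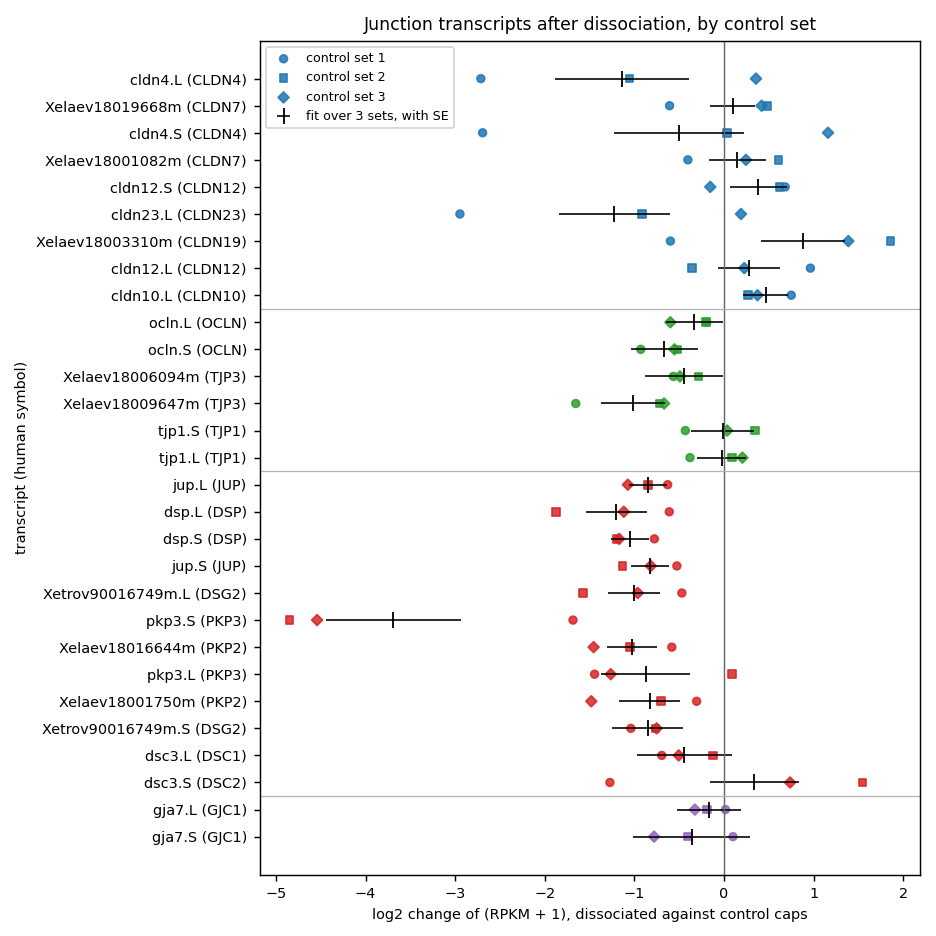
Log2 change of (RPKM + 1) between each dissociated library and the control of its set (points), with the fitted change and its standard error (black), for the same 29 junction transcripts. Desmosome transcripts (red) lie below 0 in all 3 sets for 10 of 12, and cldn4.L, cldn4.S and cldn23.L spread from below -2 in set 1 to above 0 in set 3.

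Genes of neighbouring structures give the setting of these values. Among all transcripts tested after dissociation, 0.316% were called, and 5.57% were lower and 4.03% higher at an unadjusted p under 0.05 (limma). Of the adherens junction list (cadherins, catenins, nectins and vinculin), 19 of 40 transcripts were tested and 0 called after dissociation, with 1 higher and 4 lower at an unadjusted p under 0.05 (limma), a median log2 change of -0.086 and summed levels of 1137 to 1414 RPKM in controls and 1192 to 1221 in dissociated caps. Of the tight junction partners (cingulin, the polarity proteins, MAGI scaffolds, angulins and others), 46 of 66 were tested, 0 were called higher and 1 lower, and the median was -0.090. The one called was LOC100495227.L, matched to CXADR, an immunoglobulin-type adhesion protein of tight junctions, which fell from 8.27 to 0.164 RPKM (log2 change -2.96 ± 0.34, limma, adjusted p = 0.0276). Of desmosome and hemidesmosome partners (keratins, periplakin, envoplakin, plectin and others), 20 of 31 were tested and 0 called, with 11 lower and 1 higher at an unadjusted p under 0.05 (limma), a median of -1.06 and sums of 1215 to 2661 RPKM in controls against 801.1 to 962. Only 2 of 12 transcripts of pannexins and other connexins were tested, and 0 were called, also at an unadjusted p under 0.05 (limma). With the control set as a block, 1 more of each of the first 3 lists was called lower after dissociation: LOC101734085.S (PVRL3, a nectin), amotl1.L, and krt.L (KRT19), with adjusted p-values of 0.0305, 0.0441 and 0.0361 (limma). That blocked fit called 1.51% of all transcripts.

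The injected libraries were each set against controls 1 to 4, so all 7 comparisons share their controls. The value of the labelled control is given beside the sums and for some single transcripts. The spread came from the control and dissociated libraries, and the lone treated library was assumed to vary like them. BMP4 is a ventral growth factor that keeps the ectoderm epidermal. In its library, 5 mesoderm and endoderm marker transcripts listed in all libraries summed to 489 RPKM against 4.22 in control 1. The 12 epidermal marker transcripts so listed summed to 1323 RPKM against 1285. Whether these values are tied to those of the junction genes was not tested. After BMP4, 0 of 36 junction transcripts tested were called (limma), against 0.43% of all transcripts, and at an unadjusted p under 0.05 there were 0, against 0.66% lower and 1.95% higher among all. Below every control were 4 of 12 desmosome transcripts, against 11.2% of all, and the summed desmosome level was 380 RPKM against 391 in its own control 1. The copy pkp3.S read 7.07 RPKM, above the 5.17 of control 1 and below the 16.2 to 48.1 of the other controls. The largest positive log2 changes that were also above control 1 were those of gja7.L and the ZO-3 model Xelaev18006094m. The first read 120 RPKM against 50.7 to 93.5 in the 4 controls (log2 change 0.80 ± 0.45, limma, adjusted p = 0.906). The second read 14.9 against 5.80 to 14.2. Their ratios to control 1 alone were 1.28 (95% exact binomial interval 1.23 to 1.34) and 1.045 (0.979 to 1.115), so the second did not differ from its own control beyond counting error.

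Chordin and Cerberus are secreted antagonists, the first of BMPs and the second of BMP, Nodal and Wnt ligands, and both turn caps towards neural tissue. Here 0 of 36 junction transcripts after Chordin and 0 of 34 after Cerberus were called (limma), against 0.0128% and 0.0753% of all transcripts. At an unadjusted p under 0.05, 3 were lower after Chordin and 5 lower and 1 higher after Cerberus, where 1.87% and 1.67% of all transcripts were lower and 1.07% and 1.77% higher. All 8 of those lower results were desmosome transcripts, and the one higher was cldn10.L, at 3.56 RPKM against 1.08 to 1.75 in controls 1 to 3.

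In the Cerberus library the desmosome sum was 247 RPKM against 451 in control 3. Of single transcripts jup.L read 72 RPKM against 128 to 139 in the controls, dsp.S 30.1 against 47 to 54.1, dsp.L 28.2 against 32.7 to 74, and PKP2 (Xelaev18016644m) 14.8 against 23 to 33.4. All 4 lay below each of the 4 controls, as did 8 of 12 desmosome transcripts in all (12.1% of all transcripts tested). The copy pkp3.S read 1.44 RPKM after Cerberus and 1.88 after Chordin, also below all controls; leaving out control 1, both were called (log2 changes -3.80, adjusted p = 0.0347, and -3.55, adjusted p = 0.0453, limma). Claudin 4 copies read 212 and 114 RPKM after Cerberus against 346 to 528 and 162 to 265 in the controls. Connexin gja7.S read 24 RPKM after Cerberus against 3.09 to 15.9 (log2 change 1.56 ± 0.83, adjusted p = 1). Over the 12 transcripts listed in all libraries, epidermal markers summed to 592 RPKM after Chordin and 590 after Cerberus, against 1285 and 1469 in their own controls, and 13 neural markers to 1440 and 1326 against 247 and 97.3. The part of these in the desmosome values was not tested.

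After Chordin the differences were smaller, with 8 of 12 desmosome transcripts below every control (18.3% of all transcripts). The desmosome sum was 331 RPKM against 391 in control 1, dsp.L read 24.5 RPKM against 32.7 to 74 in the controls (log2 change -1.14 ± 0.44, limma, adjusted p = 0.984), and dsp.S read 32. The partner copy pkp3.L, 47.7 RPKM, was above the 11.6 to 42.8 of the controls. Occludin ocln.L read 126 RPKM, within the control range.

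Wnt8 is a posteriorising signal and FGF8 an inducer of posterior neural tissue and mesoderm. Of the junction transcripts tested, 0 of 34 were called after Wnt8 and 0 of 33 after FGF8 (limma), against 0.0758% and 0.168% of all transcripts. At an unadjusted p under 0.05 there were 3 lower after Wnt8, where 0.872% of all transcripts were lower and 1.17% higher, and 0 in either direction after FGF8, where the shares were 1.32% and 2.26%. The 3 were pkp3.S (2.086 RPKM against 5.17 to 48.1 in the controls), jup.L (80.8 against 128 to 139) and jup.S (30.7 against 45.5 to 55.1), each below all 4 controls. Of 12 desmosome transcripts, 7 were below every control after Wnt8 (11.7% of all transcripts) and 7 after FGF8 (23.6%). Desmosome sums were 300 RPKM after Wnt8 against 451 in control 3, and 334 after FGF8 against 442 in control 4. In the FGF8 library pkp3.S read 4.99 RPKM and gja7.S 3.11, the first below all controls and the second near the lowest control.

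Xnr2, a Nodal-type ligand that induces mesoderm and endoderm, was the treatment with called junction genes. After Xnr2, 5 of 35 transcripts tested passed, where 4.14% of all transcripts did. The 3 that rose were the connexin GJB2 (Xelaev18013796m), the claudin cldn5.S and the plakophilin PKP1 (Xelaev18012278m), with 3.69% of all transcripts called higher. The 2 that fell were jup.S and dsp.S, with 0.447% of all transcripts called lower. After Wnt8 plus Xnr2, 3 of 35 passed, with 3.74% of all transcripts called. GJB2 and PKP1 rose (3.5% of all transcripts were called higher) and jup.S fell (0.24% lower). The 3 that rose passed the filter on low values only through the treated library, so they could be tested only because they were high there. Their count is no support for a difference between families. Their adjusted p-values, given below, rest on the same selection and are no independent support for a rise.

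GJB2, a connexin of epithelia and of the inner ear in mammals, was nearly absent from caps. Xelaev18013796m read 0.378, 0.307, 0.127 and 0.135 RPKM in controls 1 to 4 (11, 12, 6 and 5 reads) and 0.107, 0.557 and 0 in dissociated 1 to 3. Its level was 17.8 RPKM with Xnr2 (543 reads) and 8.62 with Wnt8 plus Xnr2 (295 reads). Both libraries were far above every other cap library that lists it. The log2 changes were 3.93 ± 0.28 (limma, adjusted p = 4.07e-05) and 2.96 ± 0.27 (adjusted p = 0.000213). Against control 4 the ratio after Xnr2 was 133 (95% exact binomial interval 56.4 to 410), on only 5 control reads. Adding Wnt8 to Xnr2 gave 0.484-fold the Xnr2 level (0.418 to 0.558, counting error only).

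The other transcripts that rose were lower in level. Claudin 5, known from blood vessel endothelium in mammals, read 0.416, 0.355, 0.181 and 0.067 RPKM in controls 1 to 4 for cldn5.S and 5.15 after Xnr2 (441 reads against 7 in control 4; log2 change 2.30 ± 0.22, limma, adjusted p = 0.000313). It was not listed after Wnt8 plus Xnr2. PKP1 (Xelaev18012278m), a plakophilin of stratified epithelia in mammals, read 0, 0.0111, 0.0275 and 0.535 RPKM in controls 1 to 4, and 2.65 and 3.06 after Xnr2 and Wnt8 plus Xnr2. Control 4 was the highest control and both treated libraries lay above it. The log2 changes were 1.70 ± 0.25 (adjusted p = 0.0043) and 1.85 ± 0.25 (adjusted p = 0.00257), and with a pseudocount of 0.1 neither was called (adjusted p = 0.0848 and 0.0775, limma).

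Among the plaque genes, the .S copy of plakoglobin had the clearest difference. The transcript jup.S read 13.6 RPKM in the Xnr2 library and 15.3 in that of Wnt8 plus Xnr2, with 45.5 to 55.1 in the 4 controls. It fell by 1.78 ± 0.25 on the log2 scale after Xnr2 (limma, adjusted p = 0.00377) and by 1.62 ± 0.25 after Wnt8 plus Xnr2 (adjusted p = 0.00706). Blocking on the control set, the second was no longer called (log2 change -1.61, adjusted p = 0.0627). The copy jup.L read 71.9 and 77.6 RPKM against 128 to 139, below all controls in both libraries (log2 changes -0.89 and -0.78, adjusted p = 0.129 and 0.223). The .L share of plakoglobin RNA was 84.1% and 83.5% in these 2 libraries and 69.5% to 76.1% in the other 12 cap libraries.

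Desmoplakin was lower alongside. The copy dsp.S stood at 19.7 RPKM with Xnr2 and 23.2 with both mRNAs, the controls at 47 to 54.1. After Xnr2 it fell by 1.32 ± 0.26 on the log2 scale (limma, adjusted p = 0.0244), and the call was lost with the control set as a block (adjusted p = 0.0665), with median scaling (0.0569), without control 3 (0.0785) and without control 4 (0.0567). For dsp.L the values were 26.7 and 23.5 RPKM against 32.7 to 74. The copy pkp3.S read 4.52 and 3.21 RPKM, below all controls. Without control 1 it was called in both (adjusted p = 0.0451 and 0.0237), and dsp.L in the second (adjusted p = 0.0313, limma). The counts thus became 6 and 5, with no share of all transcripts given here for those fits.

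Desmosome sums were 217 RPKM after Xnr2 and 221 after the double injection, where control 4 had 442. Below every control were 7 of 12 desmosome transcripts after Xnr2 (32.8% of all transcripts) and 9 of 13 after Wnt8 plus Xnr2 (22.4%). PKP1 is among the 12 and the 13, and dsc3.S was not listed after Xnr2. At an unadjusted p under 0.05 the double injection had 8 junction transcripts lower and 2 higher, against 3.61% and 7.34% of all. The 2 higher were GJB2 and PKP1, which could be tested only because they were high in the treated library, so their count is no support for a rise. Over the same library pair, epidermal markers (12 transcripts) summed to 617 and 444 RPKM against 1788, ionocyte markers (7 transcripts) to 31 and 82.4 against 537, and mesoderm and endoderm markers (5 transcripts) to 1411 and 1483 against 10.1. Whether these values are tied to those of the junction genes was not tested. Claudin 4 copy cldn4.L read 198 and 187 RPKM against 346 to 528 in the controls, while cldn4.S read 211 and 123 against 162 to 265. All 8 claudins tested after Wnt8 plus Xnr2 had a negative log2 change, the median being -0.65 beside -0.067 for all transcripts, with 0 called and 1 lower at an unadjusted p under 0.05 (limma); that one, CLDN7 (Xelaev18019668m), at 186 RPKM against 288 to 431, had an adjusted p of 0.384. The ZO-1 copy tjp1.S read 4.42 and 3.90 RPKM in the same order against 1.32 to 3.95 in the controls. The first lay above all controls and the second within their range, with adjusted p-values of 0.532 and 0.888 (limma).

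**Figure D3:**
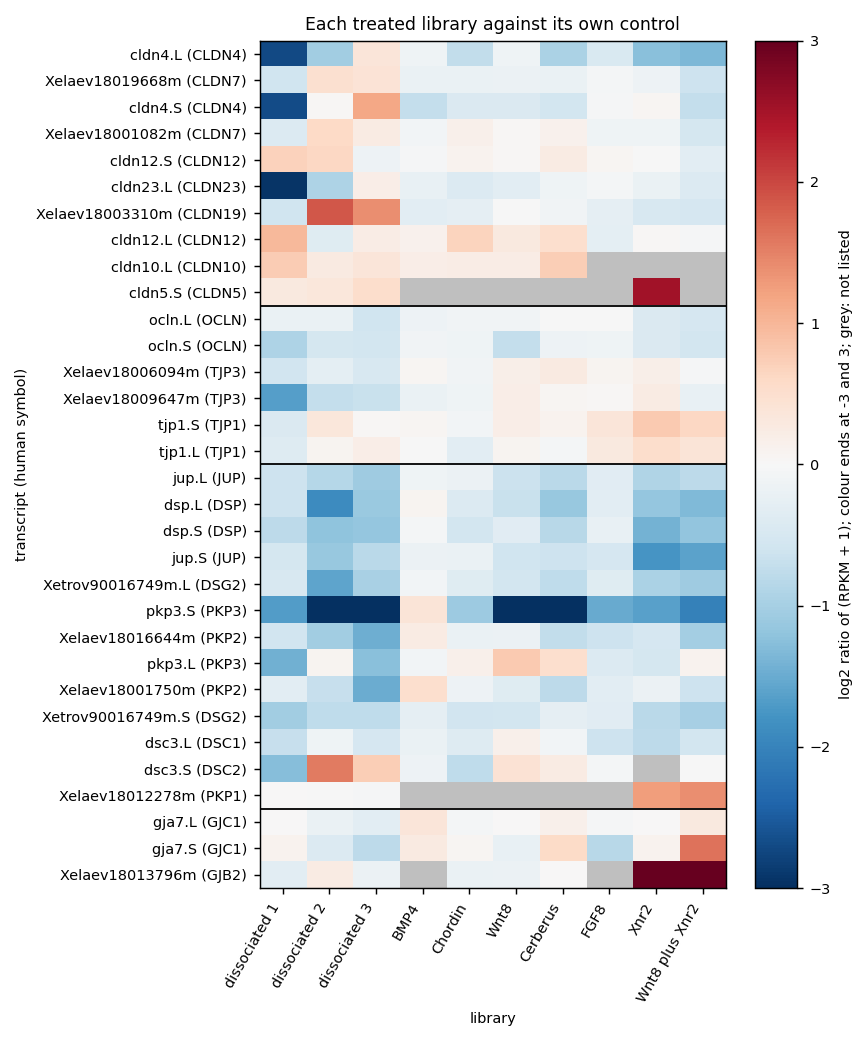
Log2 ratio of (RPKM + 1) between each treated library and its own control (colour, ending at -3 and 3; grey where not listed), for 29 expressed junction transcripts and 3 others that rose after Xnr2, in family blocks. Both plakoglobin copies, dsp.S and both DSG2 copies are lower than in the own control in all 10 libraries. The other desmosome transcripts are each higher in some library, and GJB2 is higher in those with Xnr2.

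Junction genes of the neighbouring lists were also called in these 2 libraries. Of tight junction partners, amotl2-like.L, matched to AMOTL2, a junctional scaffold of the angiomotin family, rose from a control mean of 3.07 RPKM to 43.2 after Xnr2 and 36.3 after Wnt8 plus Xnr2 (limma, adjusted p = 0.0302 and 0.0461). MAGI1 (Xetrov90026635m.S), also a scaffold, rose after Xnr2 from 1.28 to 6.33 RPKM (adjusted p = 0.0148), and CXADR (LOC100495227.L) fell after Wnt8 plus Xnr2 from 8.58 to 0.761 (adjusted p = 0.0167). When blocked on the control set, these 4 results did not pass (adjusted p = 0.0938, 0.121, 0.069 and 0.0501). They made 2 higher and 0 lower of 40 tested after Xnr2, where 3.69% of all transcripts were called higher and 0.447% lower. After the double injection they made 1 each way of 42, where the shares were 3.5% higher and 0.24% lower. The counts of higher calls are thus near those of all transcripts. Of the keratins, krt18.S, a keratin of simple epithelia, rose from 41.7 to 166 and 239 RPKM (limma, adjusted p = 0.0342 and 0.0102). KRT19 (Xelaev18045881m) fell after Xnr2 from 29.9 to 5.76 (limma, adjusted p = 0.0354). These were the only calls among the 21 desmosome and hemidesmosome partners tested in each library. The medians of that list were -0.80 after Xnr2 and -0.78 after Wnt8 plus Xnr2, beside -0.14 and -0.067 for all transcripts. Of the adherens junction list 0 were called after any of the 7 injections (limma), with 16 to 19 tested in each. At an unadjusted p under 0.05, 4 of 16 were lower after Wnt8 plus Xnr2 and 3 of 19 after Cerberus, against 3.61% and 1.67% of all transcripts. After Wnt8 2 of 19 were lower and after BMP4 1 of 18, against 0.872% and 0.66%. After Xnr2 3 of 17 were lower and 1 higher, with no share given here, and after Chordin and FGF8 there were 0. With the block, LOC101734085.S was called lower after Wnt8 plus Xnr2 (limma, adjusted p = 0.0214).

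Adding Wnt8 to Xnr2 was compared 1 library with 1 and has no test. Of 34 junction transcripts listed in both, 0 differed by at least 4-fold on the RPKM + 1 scale and reached 5 RPKM in the higher one, where 0.234% of all transcripts did. The largest difference was that of gja7.S, at 21.7 RPKM against 6.80 (ratio 3.19, 95% exact binomial interval 2.94 to 3.48). In control 4 it read 6.29 RPKM, and its control range was 3.09 to 15.9. The copy pkp3.L was also higher with Wnt8, 27.7 against 17.3 RPKM, and cldn4.S lower, 123 against 211.

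The dorsal and ventral explants contain mesoderm and endoderm as well as ectoderm, and they held high levels of connexins that were under 1 RPKM in controls 1 to 3. GJB1, a connexin of liver and myelin in mammals, read 177 RPKM in the dorsal and 154 in the ventral explant for gjb1.L (6867 and 5500 reads). In the cap libraries that list it, it read 0.0681 to 0.536 RPKM. GJB2 (Xelaev18013796m) read 125 RPKM in the dorsal and 35 in the ventral explant, a ratio of 3.59 (95% exact binomial interval 3.33 to 3.86). GJA3 (MGC69466.L) read 1.91 and 1.18 RPKM. The main cap connexin gja7.L read 91.5 and 97.7 RPKM, near the values in caps. The explants were cut and cultured differently from the caps, so tissue and handling cannot be told apart.

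**Figure D4:**
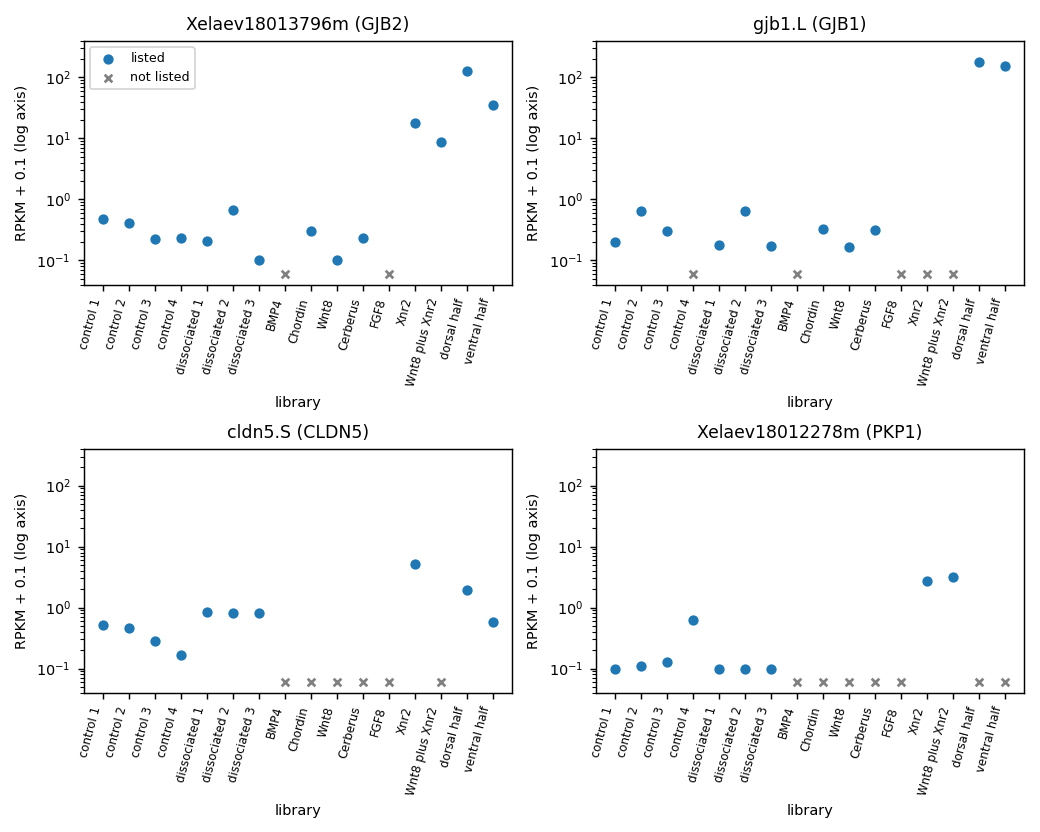
RPKM + 0.1 (log axis) of 4 junction transcripts that were low in control caps, 1 point a library and a grey cross where a table does not list the transcript. GJB2 stands at 17.8 and 8.62 RPKM after Xnr2 and Wnt8 plus Xnr2 and at 125 and 35 in the explants, while gjb1.L is high in the explants alone among the libraries that list it.

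Between the explants, 1 of 38 junction transcripts listed differed by at least 4-fold by the same rule, against 0.707% of all transcripts (0.267% lower in the dorsal explant). It was pkp3.S, at 1.42 RPKM in the dorsal and 9.59 in the ventral explant, a ventral to dorsal ratio of 6.78 (5.58 to 8.28). Its partner pkp3.L read 17.5 and 19.8 RPKM. The other plaque genes were higher in the ventral explant by smaller ratios: 1.71 for dsp.L, 1.60 for dsp.S, 1.42 for jup.L and 1.34 for both jup.S and PKP2 (Xelaev18016644m). Claudin 4 was higher there by like ratios, 1.71 for cldn4.L and 1.40 for cldn4.S. The sum of the 8 claudin transcripts listed in all libraries was 668 RPKM in the dorsal and 852 in the ventral explant. Without claudin 4 the claudin sums were 434 and 469 RPKM. The desmosome sum was 283 RPKM in the dorsal and 404 in the ventral explant. Epidermal markers (12 transcripts) summed to 826 and 1144 RPKM in the same order, and their part in this was not tested. Higher dorsally were dsc3.S (2.23 against 0.624 RPKM), cldn5.S (1.84 against 0.484) and cldn10.L (3.73 against 2.38). Both PKP2 models were higher in the explants (52.2 and 69.9 RPKM for Xelaev18016644m) than in the cap libraries, where that model read 8.57 to 33.4, and cldn23.L was lower (1.93 and 2.71) than in the 4 controls (9.39 to 17.9).

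**Figure D5:**
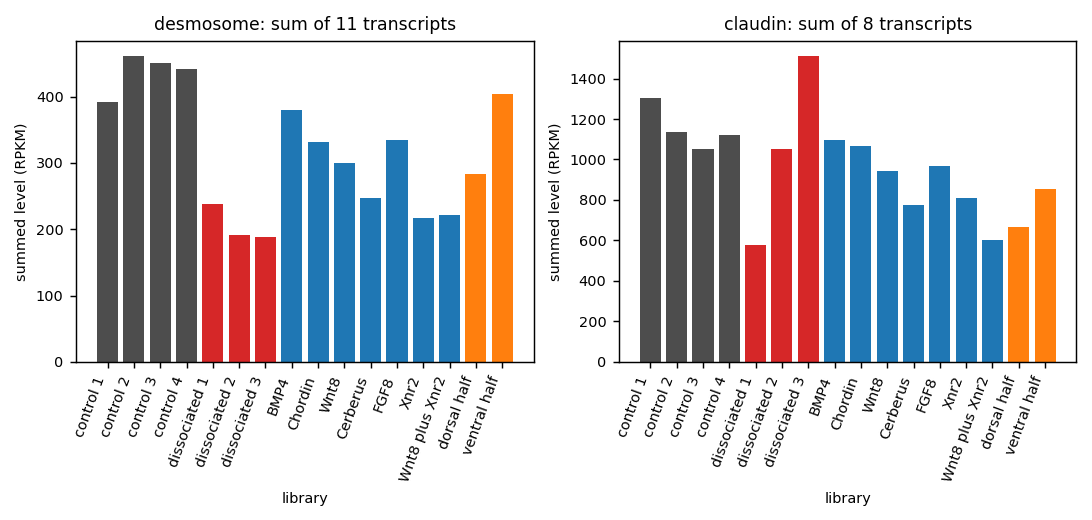
Summed RPKM of the 11 desmosome transcripts (left) and the 8 claudin transcripts (right) listed in all 16 libraries, 1 bar a library with the axis from 0. Desmosome sums run from 391 to 461 in the controls and are lowest, at 189 to 247, in the dissociated, Xnr2, Wnt8 plus Xnr2 and Cerberus libraries, while the claudin sum is lowest in dissociated 1 and highest in dissociated 3.

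The 2 copies of a gene did not always keep their ratio. Of 12 pairs with both copies at 1 RPKM or more on average, the plakophilin 3 pair varied most: the .L share ran from 19.5% to 89.2% in the controls, 87.4% to 94.7% in dissociated caps and 79.2% to 96.2% in injected caps. For claudin 4 it was 56.6% to 76.6% in controls and 56.4% to 60.5% in dissociated caps, with 48.4% after Xnr2. For occludin it was 82.71% in control 1 with 82.25% to 89.14% in its treated libraries, 70.25% in control 2 with 74.84% in dissociated 2, 62.91% in control 3 with 62.24% to 72.35% in its treated libraries, and 59.95% in control 4 with 60% to 62.13%. These shares depend on how reads were divided between copies.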

How the data were processed

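The authors deposited RPKM values per transcript of the JGI 9.1 genome, per the file headers, in one full table of 6 libraries and in tables pairing libraries. Those of a treated library with its control, and that of the explants, drop transcripts averaging under 1 RPKM, and one table of several treatments does not; a repeated identifier was used once. The submitters' processing notes name TopHat2 2.09 and DESeq; the counting rule is not given in the sources used here. From RPKM steps, mapped reads and lengths were recovered for 30496 of 30539 transcripts (99.86%), and at least 99.44% of values in each library were whole to 0.001 reads; recovered reads gave intervals only.

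Values were tested as log2(RPKM + 1) with limma 3.58.1 (R 4.3.3), which understates changes of low transcripts, with a mean-variance trend, checked on simulated data. Tested transcripts averaged at least 1 RPKM over the 6 libraries, or over an injected library and its own control. Replicate numbers paired the samples: same-numbered libraries deviated together (correlations 0.584, 0.391 and 0.628). Intervals are 95% exact binomial. Genes were named if among the 5 highest of a family in controls, called, or among the 5 largest changes in a direction also seen against the own control. Some members outside this rule were named as well, such as gjb1.L and cldn23.L. Members and lists were chosen with earlier results of these data known, and the omission of transcripts without reads in the full table, in the 3 fits with control 4, was decided after values were seen. Alternatives were pseudocount, filter, scaling, block, copy sums and left-out libraries. Some members enter the counts and sums but are not reported singly here.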

Additional observations from a re-analysis of the deposited data

Results flagged for a closer look

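Among 33 junction transcripts compared over the 4 control libraries, 1 had a library far from the rest. Occludin ocln.L read 135.9 RPKM in control 1 and 86.3 to 89.6 in the other 3 controls, a gap of 0.935 of the whole range, above Dixon's critical value at 95% for 4 samples. Chance flags about 1 in 20 such groups. The values after BMP4 and Chordin, whose control is control 1, were 122 and 126 RPKM.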

How the results depend on the processing

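Leaving out 1 library at a time gave 0 to 2 calls for dissociation, 0 to 1 for Chordin, 0 to 1 for Cerberus and 3 to 5 for Wnt8 plus Xnr2. The higher number each time came without control 1, and the cause was not tested. Shares of all transcripts called in these fits are not given here, so the counts cannot be set against them. With copies summed by human symbol 1 symbol was called after dissociation, and 5 symbols were lower at an unadjusted p under 0.05 where 10 transcripts had been; sums have fewer features. At 2-fold instead of 4-fold, 2 junction transcripts differed between the explants and 1 between Wnt8 plus Xnr2 and Xnr2. The shares of all transcripts at 2-fold are not given here, so nothing is read from these counts. With the control set as a replicate block, 0 were called after dissociation (lowest adjusted p = 0.0511, limma), 14 were lower at an unadjusted p under 0.05, and dsp.S after Xnr2 and jup.S after Wnt8 plus Xnr2 lost their calls; no other call of a junction transcript changed. That block also reversed uncalled log2 changes: after BMP4 ocln.S (0.021), cldn4.L (0.66) and cldn4.S (0.38), and after Chordin cldn12.S (-0.037), gja7.S (-0.16), cldn4.L (0.057) and ocln.S (0.00034). The remaining counts stayed within 1.5 times, those with transcripts lacking reads in the full table kept included, an alternative chosen after seeing the data. No unfiltered fit was run for BMP4, FGF8, Xnr2 and Wnt8 plus Xnr2, whose tables were already filtered. Low connexins and claudins rest on few reads, and every injection on 1 library.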
